A study of Mus musculus with 47 samples.

Results

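H3K27ac peaks of control liver that were absent from both E1/E2-KO peak lists were examined. The members were selected on the H3K27ac lists alone. A control male peak on an autosome was taken if it overlapped a control female peak by at least 1 bp and no peak of either E1/E2-KO list. Of the 28862 autosomal control male peaks, 25802 were shared with control females, and 577 of these shared peaks (2.24%, the background share against which member counts are read) were lost in this sense. The 23432 shared peaks that overlapped a peak of both E1/E2-KO lists are called kept. A further 1347 shared peaks were missing from the E1/E2-KO female list alone and 446 from the E1/E2-KO male list alone.

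Livers of 7 week old mice had been profiled by ChIP-seq for H3K27ac, H3K4me1 and H3K27me3 in 4 groups, males and females of a control and an E1/E2-KO genotype. Controls were littermates with floxed Ezh2 (Ezh2 f/f). E1/E2-KO mice were Ezh1-/- in every cell and carried Ezh2 f/f with the Alb-Cre transgene (AC+), whose albumin promoter drives Cre in hepatocytes, so that the other liver cells keep Ezh2. Reads of 4 livers per group and mark, or 3 for H3K4me1 in E1/E2-KO females, were pooled into 1 list each. The lists analysed here therefore carry no spread between livers and no depth, and no test between groups was made from them.

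H3K27ac marks active promoters and enhancers, and H3K4me1 marks enhancers whether active or poised. Ezh1 and Ezh2 are the alternative catalytic subunits of Polycomb repressive complex 2, which places H3K27me3 on the same lysine that carries H3K27ac, so that a single histone tail cannot hold both marks. In liver, this complex keeps fetal, fibrosis-related and many sex-biased genes silent in hepatocytes.

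The following mouse sequences are printed because each carries one of the patterns described. They were read from the NCBIM37 (mm9) genome on the plus strand. Ezh2 is the targeted gene and its lost peak covers exon 17 of the annotated transcript Ezh2-001, which is in capitals. Gp1ba and Cyp2c68 had lost peaks at their transcription starts, and only bases upstream of the start are shown. The last 3 are the widest lost peaks in introns that lay at least 1 kb from any E1/E2-KO H3K27ac peak and held the AP-1 motif TGANTCA, which is in capitals; these were chosen after their values were seen. In Cyp2c68, capitals mark the nuclear receptor half-site AGGTCA, read on the opposite strand.
Ezh2 exon 17 region, chr6:47482879-47483178, + strand: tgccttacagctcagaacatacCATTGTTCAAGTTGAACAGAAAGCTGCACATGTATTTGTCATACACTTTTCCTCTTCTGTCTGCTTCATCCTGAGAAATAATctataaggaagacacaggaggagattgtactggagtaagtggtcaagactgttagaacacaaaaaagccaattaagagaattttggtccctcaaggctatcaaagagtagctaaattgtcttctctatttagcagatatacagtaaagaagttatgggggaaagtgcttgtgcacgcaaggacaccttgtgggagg
Gp1ba upstream, chr11:70452405-70452623, + strand: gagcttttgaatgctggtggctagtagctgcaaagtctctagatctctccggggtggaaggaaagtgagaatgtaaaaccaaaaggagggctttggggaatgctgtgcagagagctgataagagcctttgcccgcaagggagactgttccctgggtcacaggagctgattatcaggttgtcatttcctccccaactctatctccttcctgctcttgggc
Cyp2c68 upstream, chr19:39815932-39816183, + strand: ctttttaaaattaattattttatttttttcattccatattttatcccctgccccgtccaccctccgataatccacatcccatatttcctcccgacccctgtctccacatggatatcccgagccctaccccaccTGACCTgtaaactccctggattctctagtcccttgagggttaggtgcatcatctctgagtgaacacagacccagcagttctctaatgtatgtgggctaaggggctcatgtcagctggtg
Gbe1 intron, chr16:70320961-70321260, + strand: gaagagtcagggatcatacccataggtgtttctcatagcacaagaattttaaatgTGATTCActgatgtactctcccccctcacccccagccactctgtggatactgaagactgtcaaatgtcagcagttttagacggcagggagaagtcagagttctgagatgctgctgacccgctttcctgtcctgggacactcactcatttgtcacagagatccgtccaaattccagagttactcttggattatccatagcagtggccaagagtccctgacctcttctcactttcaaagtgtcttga
Rnf11 intron, chr4:109144316-109144615, + strand: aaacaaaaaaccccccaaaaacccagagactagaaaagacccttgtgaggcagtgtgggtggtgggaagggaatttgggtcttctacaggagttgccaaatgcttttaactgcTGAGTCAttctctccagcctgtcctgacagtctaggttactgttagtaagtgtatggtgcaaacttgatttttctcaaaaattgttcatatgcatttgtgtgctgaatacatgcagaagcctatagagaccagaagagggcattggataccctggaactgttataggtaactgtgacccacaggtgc
Chst15 intron, chr7:139478964-139479263, + strand: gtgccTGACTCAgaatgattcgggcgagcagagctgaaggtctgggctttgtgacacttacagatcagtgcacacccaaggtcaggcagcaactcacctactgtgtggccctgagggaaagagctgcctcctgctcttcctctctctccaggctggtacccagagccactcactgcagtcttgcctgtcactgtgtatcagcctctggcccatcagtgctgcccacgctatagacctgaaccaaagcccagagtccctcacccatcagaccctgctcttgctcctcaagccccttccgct

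The lost peaks were narrow. Their median width was 303 bp (quartiles 263 and 371 bp), against 548 bp (quartiles 370 and 828 bp) for kept peaks. Peaks missing from 1 E1/E2-KO list only were of similar width, with medians of 323 bp (female list) and 310 bp (male list), so that narrowness was not particular to peaks lost in both. The share of shared peaks that were lost was 7.08% (86 of 1215, Wilson 95% interval 5.77 to 8.66%) at widths up to 250 bp and 4.13% (185 of 4482) from 300 to 400 bp. It was 0.253% (17 of 6726) from 600 to 1000 bp and 0.0269% (1 of 3717) above 1000 bp. Width was read from a list that chose the members. A wider peak also has more bases at which an overlap of 1 bp keeps it. The shares by width are therefore a description, in which the rule itself favours the loss of narrow peaks. These Wilson intervals and those that follow reflect counting error alone and take each peak as independent of its neighbours. The control female peak at the same place was wider than the control male one at 363 of the 577 lost peaks (62.9%) and at 83.4% of kept peaks. Fewer cells that carry the mark and less of the mark per cell cannot be told apart in these whole-liver lists.

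Lost peaks fell into 2 kinds. At 356 of them (61.7%) an E1/E2-KO H3K27ac peak lay within 1 kb, so that acetylated chromatin was still listed beside the lost interval. Around these adjacent members, H3K27ac peaks covered on average 696 bases of the surrounding 5 kb in control males, 1079 in control females, and 685 and 549 in E1/E2-KO livers of males and females. The other 221 (38.3%) were isolated, with no E1/E2-KO peak within 1 kb, and 132 of these (22.9% of all lost peaks) had none within 5 kb. Around the isolated members the means were 398, 501, 62.5 and 53.0 bases in the same order. These coverages come from the lists that chose the members and are a description. At the edge of the rule, 10 members lay within 10 bp of an E1/E2-KO peak, the nearest at 2 bp, while 10 peaks that were not called lost overlapped an E1/E2-KO peak by 10 bp or less, the smallest overlap being 1 bp.

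**Figure D1:**
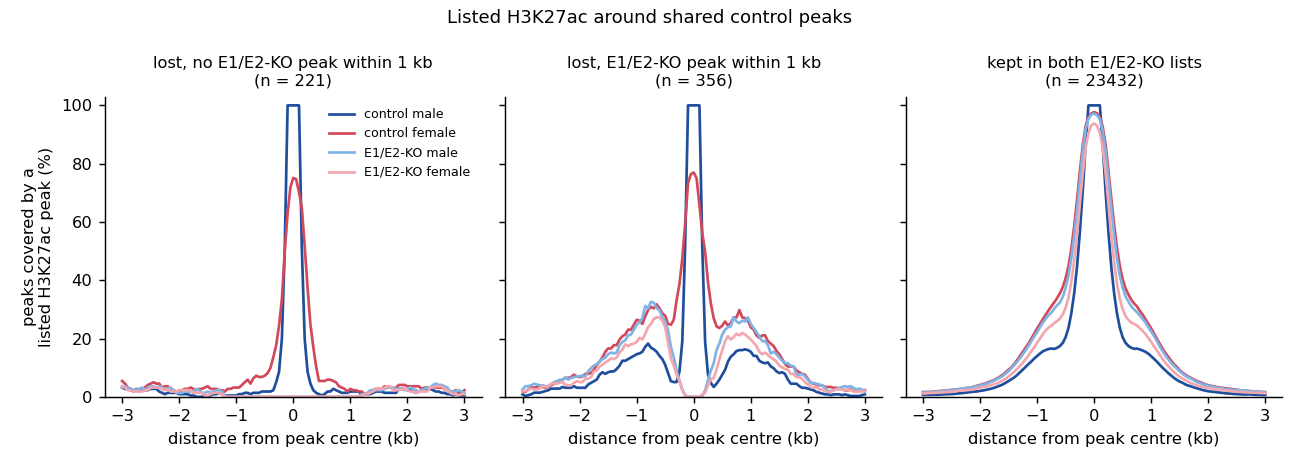
Share of peaks (percent, vertical axis) that a listed H3K27ac peak covered at each distance (kb, horizontal axis) from the centre of the control male peak, in each of the 4 lists (lines), for isolated lost peaks (n = 221), lost peaks with an E1/E2-KO peak within 1 kb (n = 356) and kept peaks (n = 23432). By the rule both E1/E2-KO lines are at 0 at the centre of lost peaks. At 500 bp to 1 side of the centre, taken without regard to gene strand, they are at 25.8% (male) and 23.9% (female) of adjacent members. At isolated members they are at 0 there by definition, as no E1/E2-KO peak lies within 1 kb.

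Lost peaks lay away from transcription starts more often than kept peaks. The nearest start of a protein-coding gene was a median 14490 bp away (1098 bp for kept peaks). Of the 577 lost peaks, 86 (14.9%, interval 12.2 to 18.04%) were within 1 kb of a start, 47 (8.15%) overlapped an exon, 259 (44.9%) lay in introns and 185 (32.1%) were intergenic. Of kept peaks, 49.6% were within 1 kb of a start, 4.61% in exons, 20.8% in introns and 24.9% intergenic. Peaks missing from 1 E1/E2-KO list only were within 1 kb of a start in 15.1% (female list) and 13.7% (male list) of cases, which lie within the interval of the lost peaks. Peak width moved with this result, the kept peaks within 1 kb of a start having a median width of 714 bp and the other kept peaks 439 bp. Among kept peaks no wider than 303 bp, the share within 1 kb of a start was 24.9% (interval 23.5 to 26.4%), and among lost peaks of those widths it was 15.1%. Isolated members were within 1 kb of a start in 17 of 221 cases (7.69%), adjacent members in 69 of 356 (19.4%).

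**Figure D2:**
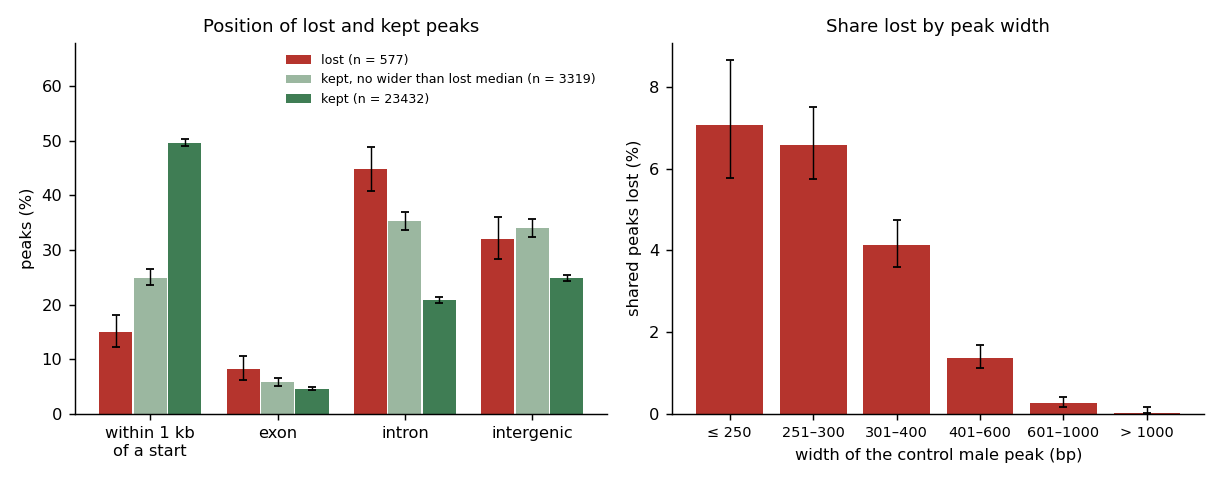
Left, share of peaks (percent) by position to protein-coding genes for lost peaks, kept peaks no wider than the lost median and all kept peaks; right, share of shared peaks lost (percent) by width of the control male peak (bp). Bars are single shares with Wilson 95% intervals; 14.9% of lost and 49.6% of kept peaks were within 1 kb of a start, and the share lost was 7.08% at widths up to 250 bp and 0.0269% above 1000 bp.

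Lost peaks were found on every autosome. Between 1.61% (chromosome 4) and 3.20% (chromosome 13) of the shared peaks of a chromosome were lost. Within 10 Mb of the targeted genes the share was 12 of 496 (2.42%) around Ezh1 and 6 of 207 (2.90%) around Ezh2, and 4 of 211 (1.90%) around Alb. Only 21 lost peaks lay within 25 kb of another, in 10 runs, the largest of 3 peaks.

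The sequences of lost peaks were poorer in G and C. Over the central 300 bases, the median GC content was 47.0% in lost and 53.0% in kept peaks, and the median number of CpG was 3 and 7. With peaks within 1 kb of a start left out, the medians were 47.0% and 49.0%, and 3 and 4 CpG. Kept peaks away from starts and no wider than 303 bp had medians of 49.0% and 3 CpG, the same CpG number as lost peaks. Of 12 motifs searched on both strands, the AP-1 motif TGANTCA, bound by Fos and Jun dimers, was in 69 of 577 lost peaks (11.96%, interval 9.56 to 14.9%), in 6.65% of kept peaks and in 6.96% of all shared peaks. Away from starts it was in 11.8% of lost peaks (interval 9.25 to 15.0%), in 8.72% of kept peaks and in 8.51% (interval 7.48 to 9.67%) of kept peaks no wider than 303 bp, and the intervals of lost and narrow kept peaks overlapped. The Gbe1, Rnf11 and Chst15 sequences printed above each hold 1 match. The SP1 motif GGGCGG, a GC box of promoters, was in 5.20% of lost and 25.3% of kept peaks (23.5% of all shared peaks), and in 3.67% (interval 2.33 to 5.72%) and 8.20% away from starts. Among narrow kept peaks away from starts it was in 6.42% (interval 5.53 to 7.46%), which overlaps the interval of lost peaks. The ETS motif CCGGAAG was in 1.56% of lost, 5.35% of kept and 5.04% of all shared peaks. Away from starts it was in 2 of 491 lost peaks (0.407%, interval 0.112 to 1.47%) and in 2.17% of narrow kept peaks (interval 1.67 to 2.82%). The STAT5 motif TTCNNNGAA was in 9.19% of lost, 7.54% of kept and 7.73% of all shared peaks, with overlapping intervals once starts were left out (9.78% and 8.93%). The half-site AGGTCA was in 20.1% of lost, 17.4% of kept and 17.6% of all shared peaks, and away from starts in 20.2% of lost and 20.7% of kept peaks. The GATA motif AGATAA was in 15.3% of lost (interval 12.6 to 18.4%), 10.2% of kept and 10.7% of all shared peaks. The E-box CACGTG was in 3.64% of lost, 5.40% of kept and 5.29% of all shared peaks. Away from starts GATA was in 15.3% of lost and 13.9% of kept peaks, and the E-box in 3.06% and 4.72%, with overlapping intervals. FOXA (TGTTTAC) was in 3.81% of lost and 3.46% of all shared peaks, HNF4 (CAAAGTCC) in 1.21% and 1.61%, and HNF1 (GTTAATNAT) in 0.8666% and 0.6085%. The D-box TTATGTAA was in 1.56% and 0.899%, and CEBP (TTGCGCAA) in 0% and 0.0736%. The intervals overlapped for each of these motifs. The Gp1ba sequence held none of the 12 motifs as spelled in the search. GATA was searched as AGATAA only, and this sequence does hold TGATAA. A match is a description of letters and not a site.

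Ezh2, the gene deleted by Alb-Cre, was itself a member. Its lost peak (chr6:47482879-47483275, 397 bp) covered all 82 bases of exon 17, which lies 44.4 kb downstream of the nearest annotated Ezh2 start in the stretch that codes for the catalytic SET domain. H3K27ac peaks covered 397 bases of exons 16 to 19 (chr6:47481740-47483836) in control males, 246 in control females and 0 in both E1/E2-KO lists. H3K4me1 peaks covered 1084 and 999 bases of the same stretch in the controls and 0 in both E1/E2-KO lists. The nearest E1/E2-KO H3K27ac peak lay 60.7 kb away, and the Ezh2 start had H3K27ac in all 4 lists. Absence of the mark and absence of the DNA cannot be told apart at this peak. Of the genes in the Polycomb list, 4 of 28 had a lost peak (4 of 77 shared peaks, 5.20%). Other than Ezh2 these were Eed, a core subunit, and Jarid2 and Phf19, accessory factors of the complex. Their lost peaks were 207, 171 and 54 bp from an E1/E2-KO peak, and their starts kept H3K27ac in all 4 lists.

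H3K4me1 was lost together with H3K27ac at a minority of members. H3K4me1 peaks overlapped 317 lost peaks in control males (54.9%), 242 in control females (41.9%), and 269 (46.6%) and 186 (32.2%) in E1/E2-KO livers of males and females. For kept peaks the shares were 66.2, 53.3, 57.4 and 43.5%, so that both sets had fewer in E1/E2-KO than in control of the same sex. The lower levels at lost than at kept peaks turned round when at least 50% of the peak had to lie inside H3K4me1, where lost peaks were 3.75 percentage points above kept ones in control males and 1.49 above in E1/E2-KO males. Of the lost peaks with H3K4me1 in the control of the same sex, 94 of 317 (29.7%, interval 24.9 to 34.9%) had none in E1/E2-KO males and 92 of 242 (38.0%, interval 32.1 to 44.3%) none in E1/E2-KO females. The background over all shared peaks was 21.2% in males and 29.7% in females, and kept peaks gave 20.6% and 29.1%. Among kept peaks no wider than 303 bp the shares were 21.3% (interval 19.6 to 23.1%) and 29.3% (interval 27.1 to 31.5%), and the intervals of lost and narrow kept peaks did not overlap in either sex. The shares were 31.4% for isolated and 28.6% for adjacent members in males and 38.1% and 37.9% in females, with overlapping intervals. Peaks whose H3K27ac was missing from the E1/E2-KO female list alone gave 26.2% in males and 35.2% in females, and those missing from the male list alone 25.8% and 39.4%, with intervals that overlap those of the lost peaks.

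Of the 200 lost peaks with H3K4me1 in both controls, 125 (62.5%) kept it in both E1/E2-KO lists and 26 (13%, interval 9.03 to 18.4%) had it in neither, against a background of 7.08% and 6.90% of kept peaks. At widths up to 303 bp this share was 10.6% of lost (9 of 85, interval 5.67 to 18.9%) and 6.66% of kept peaks (interval 5.51 to 8.04%), with overlapping intervals. Peaks missing from the E1/E2-KO female or male list alone gave 7.97% and 8.96%, with intervals that overlap that of the lost peaks. No H3K4me1 was listed in any group at 180 lost peaks (31.2%). The 26 peaks without H3K4me1 in E1/E2-KO liver included 11 isolated ones. The widest was at Coil, which encodes the Cajal body scaffold coilin. This 1477 bp peak (chr11:88829294-88830770), 796 bp upstream of the Coil start, was also the widest of all lost peaks. The place of this peak was covered by H3K4me1 peaks of 1353 bp in control males and 767 bp in control females. It also lay inside H3K27me3 regions of 9.6 kb and 7.2 kb in these controls, and none of the 3 marks was listed there in either E1/E2-KO list, where the nearest H3K27ac peak was 3739 bp away. The Dio3 peak (chr12:111209856-111210404), an intergenic peak far upstream of the gene for the deiodinase that inactivates thyroid hormone, was the other of 2 members where H3K4me1 and H3K27me3 were in both controls and in neither E1/E2-KO list, but E1/E2-KO H3K27ac lay 543 bp from it. Isolated members with H3K4me1 in both controls only also lay in Sik3, a salt-inducible kinase (chr9:45843085-45843513, 10.9 kb from an E1/E2-KO peak), in Tbl1xr1, part of the NCoR corepressor complex, and near Tubg2, a gamma-tubulin. At Cib2, Mettl7a1, AF085738 and Rad51l1 an E1/E2-KO H3K27ac peak lay within 1 kb.

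New H3K27me3 was less frequent at lost peaks than over shared peaks as a whole. H3K27me3 regions overlapped 16.1% of lost peaks in control males and 12.8% in control females, and 23.0% and 11.6% in E1/E2-KO livers of males and females. For kept peaks the shares were 15.5, 12.7, 30.3 and 17.01% in the same order. Of lost peaks outside H3K27me3 in the control, 71 of 484 (14.7%, interval 11.8 to 18.1%) were inside in E1/E2-KO males, against a background of 22.0%, and 33 of 503 (6.56%, interval 4.71 to 9.07%) in E1/E2-KO females, against 10.4%. Of the 475 lost peaks outside H3K27me3 in both controls, 23 (4.84%, interval 3.25 to 7.16%) were inside in both E1/E2-KO lists, against a background of 7.61%, and 43 (9.05%) in the male list alone. None was inside in the female list alone, which allows a share of up to 0.802% by the Wilson interval. At 409 lost peaks (70.9%) no H3K27me3 region was listed in any group. Among kept peaks no wider than 303 bp the shares with new H3K27me3 were 25.3% (interval 23.7 to 26.99%) in males and 12.1% (interval 10.9 to 13.3%) in females. Among peaks missing from the E1/E2-KO female list alone they were 17.9% and 8.72%, and from the male list alone 21.7% and 11.5%. In the opposite direction, 31 of the 93 lost peaks inside H3K27me3 in control males (33.3%, interval 24.6 to 43.4%) were outside it in E1/E2-KO males and 40 of 74 (54.1%, interval 42.8 to 64.9%) in females, beside 27% and 38.9% of kept peaks.

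**Figure D3:**
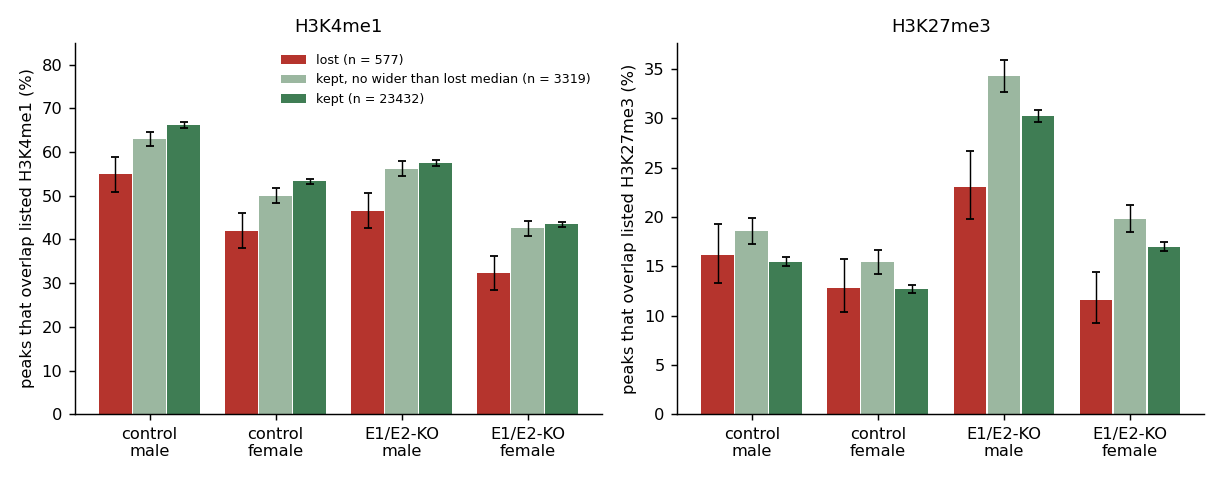
Share of peaks (percent) that overlapped listed H3K4me1 (left) or H3K27me3 (right) in each of the 4 lists, for lost peaks (n = 577), kept peaks no wider than the lost median (n = 3319) and all kept peaks (n = 23432), with Wilson 95% intervals. H3K4me1 was at 54.9% of lost peaks in control males and 46.6% in E1/E2-KO males; H3K27me3 was at 23.0% of lost and 30.3% of kept peaks in E1/E2-KO males.

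The 23 lost peaks with new H3K27me3 in both sexes included 6 isolated ones. One isolated member lay in an intron of Shank2, a synaptic scaffold gene (chr7:151237561-151237956), 3885 bp from an E1/E2-KO peak. H3K27me3 covered 3.41% of Shank2 in control males, 2.18% in control females, and 85.2% and 37.7% in E1/E2-KO livers of males and females. Another isolated one lay in Ptk2b, which encodes the kinase Pyk2, 2909 bp from an E1/E2-KO peak. Adjacent ones lay near Egfr, the epidermal growth factor receptor with male-biased expression in liver, and in Gstt1, a glutathione transferase. H3K27me3 covered 0% of Gstt1 in both controls, and 100.0% and 91.0% in E1/E2-KO livers of males and females, while its start had H3K27ac in all 4 lists. Egfr was covered to 0% in both controls, and to 38.7% and 3.01% in E1/E2-KO livers of males and females. Further wide members of this kind were at A430107O13Rik, Spsb4, Gm4795, Rpe, Dhx8 and Nlrp6, and at Rpe, which encodes a pentose phosphate pathway enzyme, H3K4me1 was also in both controls and in neither E1/E2-KO list.

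The lost peaks were nearest to 548 genes, 4.75% of the 11535 genes with a shared peak. Of these, 522 had 1 lost peak, 23 had 2 and 3 had 3. Genes with a lost peak had a median of 3 shared peaks, and all genes had 2, so that genes with many peaks had more chances to be counted. For 58 genes every shared peak was lost, and 56 of these had only 1. At 11 of the 58, no E1/E2-KO list held H3K27ac within 10 kb of the gene, and 4 of these had control H3K27ac there, namely Cyp2c68, Top2a, Zfp239 and Esyt2, a gene of membrane contact sites named after its values were seen. The other 7 had none within 10 kb in any list, because the lost peak assigned to them lay farther away. Lpp, which encodes a focal adhesion protein, had 3 lost of 26 shared peaks, and the lists held 22, 53, 48 and 43 H3K27ac peaks within 10 kb of its span in male and female controls and in E1/E2-KO livers of males and females. Dock4 had 3 lost of 8, with 11, 18, 19 and 16 peaks in the same order. The control male list held the fewest peaks at both genes, and their starts had H3K27ac in all 4 lists. Etv6, an ETS repressor, Sik3, Akr1c14, an aldo-keto reductase of steroid metabolism, Hsd17b6, a retinol and steroid dehydrogenase, Cse1l, Xirp2, Alg14, Dhx40 and Rpl7a-ps3 had 2 each. The Xirp2 pair (chr2:67561035-67561333 and chr2:67561847-67562382) lay in intergenic sequence downstream of this striated-muscle gene, 206 kb from the nearest of its annotated starts. The gene had no start H3K27ac in any list, and the E1/E2-KO peak nearest to the pair was 10652 bp away.

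Loss of H3K27ac at a gene start was rare. Of 10133 genes with H3K27ac within 1 kb of a start in both controls, 11 (0.109%) had none in either E1/E2-KO list, and 10 of these genes had a lost peak there, 11 peaks in all. At Gp1ba, the platelet glycoprotein Ib alpha gene, the peak (chr11:70452405-70452945) was 541 bp wide in control males and 233 bp in control females and 6738 bp from the nearest E1/E2-KO peak. Cyp2c68, a cytochrome P450 gene, had peaks at its start (chr19:39815105-39815610) and 388 bp upstream (chr19:39815932-39816183), which covered 758 bases in control males and 832 in control females, and the nearest E1/E2-KO H3K27ac peak was 92.0 kb away. Cyp2c genes have near-identical copies, so reads could have been split among them. Top2a and Prc1, which encode the topoisomerase and the midzone protein of dividing cells, lost start peaks of 278 bp (chr11:98885146-98885423) and 236 bp (chr7:87439531-87439766). H3K27me3 covered 89.8% of Top2a in control males, 18.1% in control females, and 3.02% and 3.53% in E1/E2-KO livers of males and females, and for Prc1 the values were 100.0%, 45.2%, 0% and 0%. The small E1/E2-KO female region in Top2a overlapped its lost peak. At both lost peaks H3K4me1 was in all 4 lists. H3K27me3 thus covered all or part of these 2 genes in both controls, and most of it was missing from the E1/E2-KO lists. Coverage of a gene does not place its start peak inside a region. Of the 38 genes of the proliferation list, 23 had start H3K27ac in control males and 32 in control females. In E1/E2-KO livers 32 had it in males and 29 in females. The male count was thus higher in E1/E2-KO and the female count lower. This was not particular to proliferation genes. In every gene list the E1/E2-KO male count was equal to or above the control male one, as with 54 and 45 drug-metabolism genes. The female count was lower in E1/E2-KO in some lists (50 and 52 drug-metabolism genes) and not in others. The same counts over all genes are not given here. The whole control male H3K27ac list held 29359 peaks and the E1/E2-KO male list 55930. The part of list length in these counts was not tested. The other genes with a lost start peak were Lrdd, a death-domain gene, Mapk15, Cklf, 1700007K13Rik, Arhgap9 and Zfp239.

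**Figure D4:**
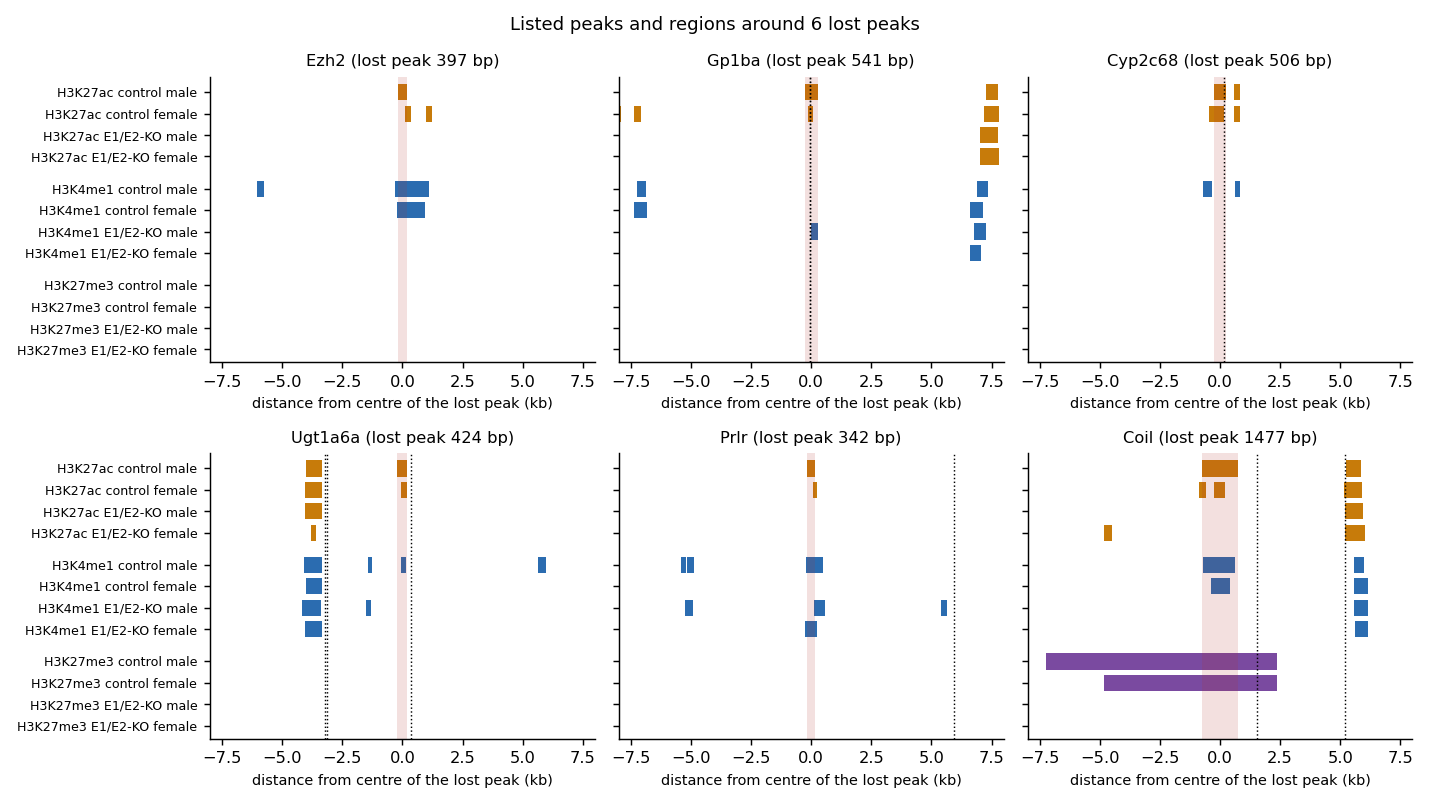
Listed peaks and regions (bars) of the 3 marks in the 4 groups around 6 lost peaks (shaded), those of Ezh2, Gp1ba, Cyp2c68 (at the start), Ugt1a6a, Prlr and Coil, by distance from the centre of the lost peak (kb); dotted lines are starts of the named gene. Within the shaded intervals H3K27ac is in both control rows and in neither E1/E2-KO row; at Ezh2 and Coil the H3K4me1 bars, 1353 bp and 767 bp at Coil, are likewise in controls only.

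The widest lost peaks after Coil were in Sun2 (908 bp), a nuclear envelope gene, Cept1 (876 bp), an enzyme of phospholipid synthesis, and Tnks (786 bp), a tankyrase. They were followed by peaks at Tnfrsf14, Tnrc18, Enpep, Hsd17b12, Megf9, R3hdm2, Car1 and Cib2, of 726 down to 647 bp. The Cept1 intron peak (chr3:106330958-106331833) was 12951 bp from any E1/E2-KO peak. Hsd17b12, an enzyme of very long chain fatty acid elongation, held an intron peak (chr2:93952341-93953033) 32.1 kb from any E1/E2-KO peak and with H3K4me1 in all 4 lists. The intergenic peak upstream of Megf9 (chr4:70326359-70327042) was the farthest of all, with the nearest E1/E2-KO H3K27ac peak 129632 bp away, and had neither H3K4me1 nor H3K27me3 in any list. Of these 12 peaks, the control female peak was narrower than the control male one at all but Enpep. The 12 were picked by control male width, which favours this outcome. Over all lost peaks the control female peak was the wider one at 363 of 577 (62.9%).

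Among 22 gene lists of liver functions and cell types, 41 of the 538 genes with a shared peak had a lost peak (7.62%, beside 4.75% of all genes). Counted by peaks, 43 of the 1754 shared peaks of these genes were lost (2.45%, beside 2.24% of all shared peaks), so that the larger share of genes went with more shared peaks per gene. In the list of growth hormone and STAT5 signalling, which drives sex-biased expression in liver, 3 of 28 genes had one, and 3 of their 130 shared peaks were lost (2.31%). Those were the hormone receptors Ghr and Prlr and the feedback inhibitor Socs2. The Ghr intron peak (chr15:3486778-3487030) was 21.8 kb and the Prlr intron peak (chr15:10237731-10238072) 8993 bp from an E1/E2-KO peak, and the Socs2 exon peak 5489 bp. All 3 were isolated, and the 3 starts had H3K27ac in all 4 lists. At Prlr, H3K4me1 was listed at the lost peak in control males and both E1/E2-KO lists. Socs2 was inside H3K27me3 at the lost peak in both controls and in neither E1/E2-KO list. Of genes with male-biased expression, 4 of 28 had a lost peak (4 of 96 shared peaks, 4.17%). They were Cyp2u1 (534 bp, 3190 bp from an E1/E2-KO peak), Keg1 (239 bp, 10.2 kb away), Mup20 and Egfr. Of genes with female-biased expression only Prlr had one (1 of 27, and 1 of 80 shared peaks, 1.25%).

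Acute-phase and inflammatory genes had 6 of 35 (6 of 98 shared peaks, 6.12%). The Cp peak at an annotated start of ceruloplasmin (chr3:19857256-19857659) was 2439 bp from an E1/E2-KO peak and the Steap4 peak 7019 bp. The lost peaks of Serpina3k, Itih4, Lepr and Il1r1 were within 1 kb of an E1/E2-KO peak, and at Itih4 a single control female peak of 2466 bp spanned the interval. All 6 genes had start H3K27ac in all 4 lists. Bile acid genes had 4 of 29 (4 of 109 shared peaks, 3.67%), namely Cyp7a1, the rate-limiting enzyme of bile acid synthesis, Cyp2c70, the phospholipid exporter Abcb4 and the nuclear receptor Nr5a2. Only the Abcb4 peak (7393 bp from an E1/E2-KO peak) was isolated. Drug-metabolism genes had 4 of 53 (4 of 139 shared peaks, 2.88%). Of these, the peak 137 bp upstream of a start of Ugt1a6a (chr1:90034393-90034816), a glucuronosyltransferase, was 3136 bp from an E1/E2-KO peak and that near Ces1b, a carboxylesterase, 11.3 kb, whereas those of Ces1c and Gstt1 were adjacent. Ugt1a6a still had H3K27ac within 1 kb of at least 1 of its annotated starts in all 4 lists. Starts within the Ugt1a cluster share their downstream exons, so the gene assignment there is uncertain.

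Proliferation genes had 4 of 27 (5 of 78 shared peaks, 6.41%), which were Top2a, Mycn, Myc and Cdkn1c. The pair assigned to Myc lay over 724 kb from its nearest annotated start. Transcription factors of hepatocyte identity had 2 of 35 (2 of 183 shared peaks, 1.09%, beside 2.24% of all shared peaks), Nr5a2 and Nfib, both adjacent to E1/E2-KO peaks. Sterol and lipid synthesis genes had 2 of 39 (2 of 148 shared peaks, 1.35%), Sqle and Dhcr7, both adjacent. Plasma protein genes had 2 of 58 (2 of 160 shared peaks, 1.25%), Alb and F12. The Alb peak, 19.6 kb upstream of the albumin start (chr5:90869945-90870268), was 282 bp from an E1/E2-KO female peak and 1709 bp from an E1/E2-KO male one. Stress and immediate-early genes had 2 of 43 (1.51% of their shared peaks, 3 in all), Myc and Gadd45g, and the circadian list had 1 of 27 (1 of 104 shared peaks, 0.962%), Hlf. Pericentral genes had 2 of 25 (2 of 64 shared peaks, 3.12%), Cyp7a1 and Znrf3, and periportal genes 2 of 26 (3 of 94 shared peaks, 3.19%), Hsd17b6 and Agxt2l1. None of 38 genes of fasting, glucose production and fat oxidation had one, with 122 shared peaks among them. With at most 6 lost peaks in any list, counts of 0 and of a few were not tested against each other.

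Markers of the cell types in liver gave the context of these lists. Of 20 hepatocyte markers, 13 had start H3K27ac in control males, 16 in control females, and 16 and 17 in E1/E2-KO livers of males and females, and Alb was the only one of 18 with a shared peak that had a lost peak. Of 25 endothelial markers, 4, 15, 14 and 18 had start H3K27ac in the same order, and 2 of 13, Pecam1 and Clec4g, had a lost peak, both adjacent to E1/E2-KO peaks. Start H3K27ac was at 2, 6, 3 and 3 of 22 Kupffer cell markers and at 1, 7, 7 and 7 of 23 stellate markers. It was at 6, 7, 9 and 8 of 17 cholangiocyte markers and at 0, 2, 2 and 1 of 20 lymphocyte markers. None of the 4 Kupffer cell, 5 stellate, 9 cholangiocyte and 4 lymphocyte markers with a shared peak had a lost one. The part of cell composition in the lost peaks was not tested. The whole H3K27ac lists held 29359 peaks in control males, 49702 in control females, and 55930 and 51253 in E1/E2-KO livers of males and females. On autosomes these peaks covered 16.97, 30.71, 31.53 and 26.03 Mb in the same order, so that the E1/E2-KO female list covered less than the control female list that also entered the rule, and the part of list length in the lost peaks was not tested. For H3K4me1 the E1/E2-KO lists were slightly shorter than the controls, with 67913 against 69797 peaks in males and 51417 against 54798 in females, and the part of this in the H3K4me1 shares was not tested either.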

How the data were processed

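The authors pooled the reads of the livers of each group and mark (47 samples in all), mapped them to mm9 with Bowtie2 (version 2.3.2) and found H3K27me3 regions with SICER (version 1.1, windows of 400 bp), whereas MACS2 (version 2.1.1) served for both other marks, according to the study's methods and the submitters' processing notes. The 12 deposited lists, 1 for each mark and group, hold chromosome, start, end and name, with no score, signal or read count. Read depth is not known from them.

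Overlap meant at least 1 shared base, computed in Python 3.11.15 with numpy 2.4.6, pandas 2.3.3, SciPy 1.17.1 and matplotlib 3.10.9, using code that was tested on simulated lists. Starts counted from 0 were printed from 1, and the 1 base missing at the end of SICER windows was added. Each peak was assigned to the nearest protein-coding start of GENCODE M1 (NCBIM37). Positions were ranked as within 1 kb of a start, exon, intron, intergenic. New H3K27me3 means inside a region in E1/E2-KO and outside in control liver of the same sex.

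The members and the 22 gene lists were chosen with earlier results of these data known. Named genes were the 12 with most lost peaks, the 12 widest, up to 12 with lost start H3K27ac, the 10 widest with new H3K27me3 in both sexes, the 10 widest with H3K4me1 in both controls only, and list members. Alternatives changed the overlap, the gap, the peak merging, the width, the start distance, the H3K4me1 overlap and the H3K27me3 margin. Peaks on chromosome 18 were counted and not named.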

Additional observations from a re-analysis of the deposited data

Results flagged for a closer look

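The share of lost peaks inside H3K27me3 regions differed from control with opposite signs in the sexes, but the female sign depended on how lost peaks were defined. It was 6.93 percentage points higher in E1/E2-KO than in control males (23.0% and 16.1%), and its difference in females was -1.21 percentage points (11.6%, interval 9.25 to 14.5%, and 12.8%, interval 10.3 to 15.8%), with overlapping intervals. When a peak counted as covered only at 50% overlap, the female shares were 11.3% in E1/E2-KO and 8.98% in control, and in the widest 50% of each control list, with 25 lost peaks, 8.0% and 4.0%, so that both sexes were then higher in E1/E2-KO. In the other settings run, the female share was lower in E1/E2-KO, as with merged peaks (11.3% and 15.2%). Isolated members had female shares of 10.4% in E1/E2-KO and 14.5% in control. Adjacent members, which were not a setting of their own, had 12.4% and 11.8%. Each group and mark has 1 pooled list, so the difference between the sexes was not tested. The kept peaks gave higher shares in E1/E2-KO lists of both sexes, 30.3% against 15.5% in males and 17.01% against 12.7% in females.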

How the results depend on the processing

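No paired analysis was possible because each group and mark has 1 pooled list in the files used here, and for the same reason no liver could be left out. Without depth in the lists, a peak near the caller's threshold cannot be told from an absent one. The share of shared peaks that were lost was 3.353% (835 peaks) when a peak counted as covered only at 50% overlap, 0.8565% (221 peaks near 213 genes) with no E1/E2-KO peak within 1 kb, 1.99% after merging peaks within 1 kb, and 0.1845% (25 peaks near 25 genes) in the widest 50% of each control list. It was 3.553% over 1 kb from every start, a setting chosen after seeing the data. The share of lost peaks at starts was 7.692% for isolated members, 6.88% after merging, 19.41% with all annotated genes and 22.01% within 3 kb. Among the widest 50%, H3K4me1 loss was 41.67% in males and 45.45% in females, but of only 12 and 11 lost peaks. It was 22.77% and 31.58% with H3K4me1 counted within 500 bp, and 36.54% and 46.53% with 50% of the peak inside H3K4me1. New H3K27me3 in males was 11.35% for isolated members, and in females 4.376% when control H3K27me3 was also absent within 5 kb. The lost minus kept difference for H3K4me1 loss stayed above 0 and that for new H3K27me3 below 0 in every setting run. Peaks within 1 kb of a start, which were not a setting of their own, differed for new H3K27me3 in females. There it was at 7 of 67 lost peaks (10.45%, interval 5.154 to 20.03%) and 9.478% of kept peaks (interval 8.918 to 10.07%), with overlapping intervals. Other lost minus kept differences turned sign. With 50% of the peak inside H3K4me1, the H3K4me1 differences were 3.754, 3.757, 1.488 and 1.438 percentage points in male and female controls and male and female E1/E2-KO lists, in that order. For control H3K27me3 the differences in males and females were -3.36 and -3.672 with 50% covered, -5.422 and -6.919 in the widest 50%, and -0.2451 in males away from starts. The cause was not tested.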
